A study of Mus musculus with 8 samples.

Results

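The 4 arrays described here compare growing mouse pre-B cells that carried a retroviral vector for hsa-miR-125b-1 with cells of the same line that carried the control vector, both kept in IL-7. They are 4 of the 8 arrays of the study and were taken by their labels, 2 for each vector; the other 4 arrays hold the same 2 kinds of cell 24 h after IL-7 was withdrawn. All cells belong to the pre-B line 1676, whose genotype is SLP-65-/- LAT-/-, so the control cells lack both adaptor proteins as well. The line was grown in Iscove's medium with 7.5% FCS, penicillin, streptomycin, 2-ME and an excess of IL-7 in supernatant from J558L cells, and was selected with 1 µg/ml puromycin for some days after infection. The study made 2 independent experiments with cell clones made independently for each, all from this 1 parental line; that the replicate numbers mark these experiments is not stated. Both vectors were hybridised on 1 slide in 1 scan. On that slide the control arrays lie in one column and the miR-125b arrays in another, so vector and position on the slide cannot be told apart.

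A microRNA guides the silencing complex to messenger RNAs that pair with its seed, the bases near its 5′ end, and these messengers are then translated less and often degraded. miR-125b is known in blood cells as a microRNA of stem cells and progenitors whose overexpression drives leukaemia in mice, and it was studied for its effect on p53, on pro-apoptotic BCL2 proteins and on kinases. Pre-B cells divide in response to IL-7. When the cytokine is lost they leave the cycle, open the immunoglobulin light chain loci and differentiate or die. SLP-65 (Blnk) and LAT are adaptors that carry the signal of the pre-B cell receptor towards differentiation, and lines without them keep dividing in IL-7.

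The mouse mature sequence is shown because every match searched below is the reverse complement of its seed, bases 2 to 8, printed in capitals. The locus given for it is chr9:41581940-41581961 on the plus strand of GRCm38.p6 (RefSeq), and any other locus of the same mature sequence is not listed here. miR-125a-5p, at chr17:17830817-17830840 on the plus strand, is shown as it has the same seed and would therefore match the same sites.
mmu-miR-125b-5p: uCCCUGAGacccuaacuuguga
mmu-miR-125a-5p: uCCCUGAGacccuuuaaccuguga
The mature microRNA itself was not measured, since the arrays detect polyadenylated transcripts. The expression of the vector in each library was therefore not checked here.

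Signals below are log2 values relative to the 75th percentile of each array, so that 0 is a probe as bright as that percentile, and a difference is the miR-125b mean minus the control mean on this log2 scale, with its standard error from limma. Of 20677 genes or transcripts tested, 12617 of them with a gene symbol, 534 passed an adjusted p of 0.05 (2.58%), 233 higher with miR-125b (1.13%) and 301 lower (1.46%). Of these, 185 differed by at least 2-fold (0.895% of all). At an unadjusted p under 0.05 there were 4266 (20.6%), of which 1825 were higher (8.83%) and 2441 lower (11.8%). The median of all genes was -0.04, with 43.3% of genes above 0. Under scaling to the median of each array 61.6% of the called genes were higher, against 43.6% in the main setting. The distance between libraries of different vectors was little more than that between replicates. The SD of the log2 difference over all genes was 0.416 between the control replicates, 0.396 between the miR-125b replicates and 0.444 to 0.536 between the 4 pairs of opposite vectors. With 2 arrays a side an exact permutation test of a single gene cannot go below p = 0.333, and the calls lean on the spread pooled over the 8 arrays. With only the 4 arrays in IL-7, limma called 0 genes (3062 at an unadjusted p under 0.05). Without replicate 2 of the control it called 0 (3343 unadjusted), and without replicate 2 of miR-125b 0 (3415 unadjusted). Without replicate 1 it called 140 for the control and 100 for miR-125b. Leaving out any array of the cells without IL-7 left 26 to 28 calls, and a fit with the replicate number as a block left 17. Each of the 98 called genes named in the text lost its call in 4 to 17 of up to 19 other settings run. For 78 of the 98 the call was lost in more than 50% of these settings. None of the 98 changed sign in any setting. The values per array are therefore given first for each gene.

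**Figure D1:**
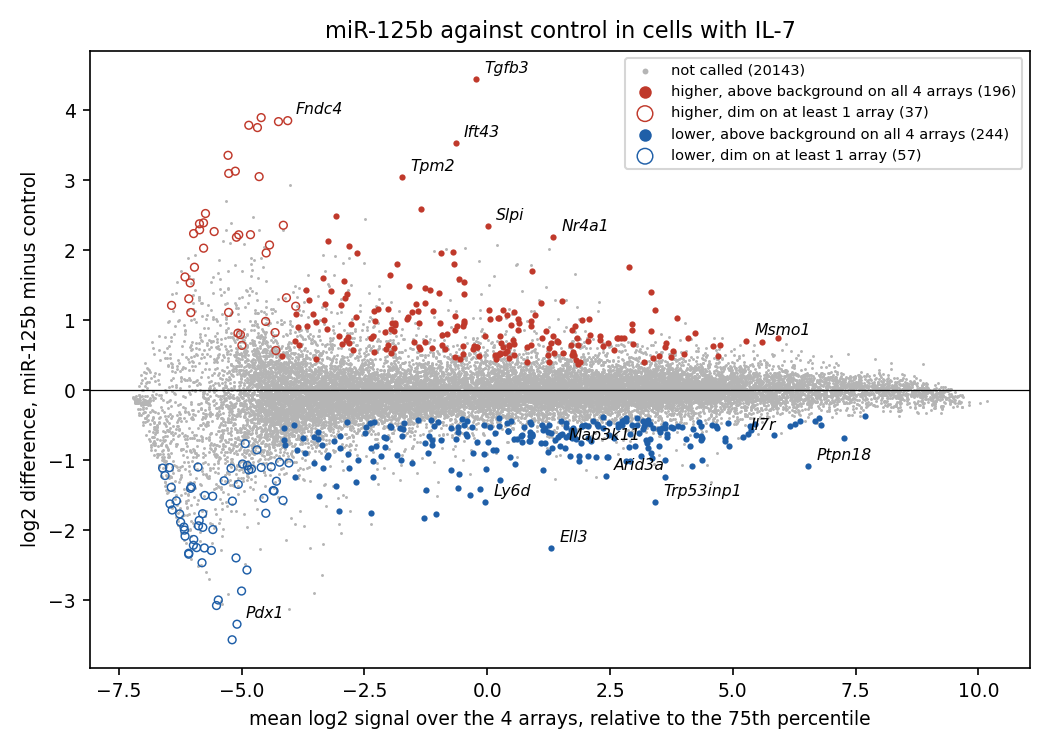
The log2 difference, miR-125b minus control (vertical axis), is plotted against the mean log2 signal of the 4 arrays relative to the 75th percentile (horizontal axis), with 1 point for each of 20677 genes. Filled red and blue points are the 196 higher and 244 lower called genes that were above background on all 4 arrays, open circles are called genes dim on at least 1 array (their drawn difference is partly against background), and Tgfb3 at 4.45 and Ell3 at -2.26 mark the ends of the filled points.

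The arrays matched a pre-B cell. Of 13 B-lineage markers 12 were above background on all 4 arrays. Vpreb1, a surrogate light chain of the pre-B cell receptor, read 9.34 and 9.28 in the control and 9.27 and 9.43 with miR-125b, and Igll1, its partner chain, read 7.41 and 7.36 against 7.43 and 7.43. Ebf1, a factor that commits cells to the B lineage, lay between 4.88 and 4.90 on the 4 arrays. The exception was Blk, a Src family kinase, which was dim on some of the arrays. The summed B-lineage signal was 10.78 and 10.73 in the control and, in replicate 2 of miR-125b, 10.76, with replicate 1 of miR-125b just below them. None of the markers of other cell types was called. For myeloid cells 6 of 16 listed markers were above background on all 4 arrays and their summed level was 7.46 and 7.59 against 7.30 and 7.42. That sum is carried by Csf3r, the G-CSF receptor, which read 7.36 and 7.47 against 7.17 and 7.29. The others of the 6 were Cd68, Csf1r, Elane, Fcgr3 and Itgam. Lyz2 and Ctsg were not well above background in the control. Ctsg was above background on both miR-125b arrays, at -4.65 and -4.38, and did not pass limma's test (adjusted p = 0.276). T and NK markers (7 of 18) summed to 2.98 and 2.97 against 2.86 and 2.74, plasma cell markers (7 of 9) to 7.71 and 7.57 against 7.55 and 7.60, and stromal markers (2 of 13) to -3.08 and -3.13 against -3.21 and -3.21. Erythroid and megakaryocyte markers (6 of 14) summed to 2.95 and 2.97 against 3.38 and 3.61. Most of this sum is Tfrc, the transferrin receptor of dividing cells, at 2.84 and 2.87 against 3.25 and 3.54 (adjusted p = 0.0646); their part in any result was not tested. The arrays measured whole cultures, in which fewer cells of a type and less RNA per cell cannot be told apart. The probes for Blnk and Lat were lit in both groups (Blnk 7.05 and 7.14 against 7.30 and 7.23; Lat 1.73 and 1.86 against 1.67 and 1.58). Where these probes lie relative to the disrupted parts of the genes is not given in the sources used here, so they do not check the genotype.

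Genes with a piece of sequence that can pair with miR-125b were somewhat lower with the vector. No 3' untranslated regions were used here. The 60 bases of each array probe, which lie in the transcript itself, were searched in the sense of the messenger for CTCAGGGA (8 bases), CTCAGGG and TCAGGGA (7 bases each). The 8-base match holds both shorter ones, and each gene was counted once under its longest. A match was present in the probes of 226 genes or transcripts (1.09% of all tested), all counted as genes here. Many of them have no gene symbol, some overlap in position and some were dim in both groups. The 226 are thus not all distinct messengers. Their median difference was -0.11 against -0.04 for all genes, and 68.6% of them lay below 0 against 56.7% of all. Of the 226 genes 10 were called lower (4.42%, against 1.46% of all genes) and 1 higher. At an unadjusted p under 0.05, 45 were lower and 9 higher, against 11.8% and 8.83% of all genes. The 28 genes with the 8-base match had a median of -0.15, with 7 lower and 0 higher at an unadjusted p under 0.05. The 110 genes with CTCAGGG had a median of -0.11 and the 88 with TCAGGGA -0.12. The median of the 226 genes minus that of all genes was -0.0577 between the libraries numbered 1 and -0.0854 between those numbered 2, so it was below 0 in both replicates. On the 4 arrays without IL-7 the same 226 genes had a median of -0.07 against -0.01 for all, and 59.3% lay below 0 against 51.6%. These are descriptions: no test was run on the set, and a match in a probe is not a shown binding site.

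**Figure D2:**
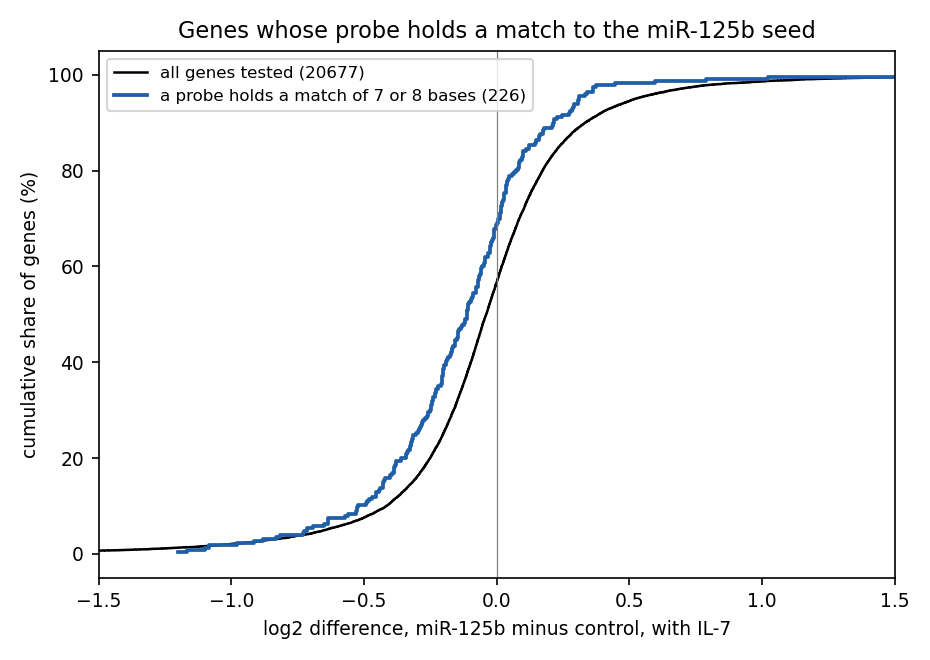
Cumulative share of genes in percent (vertical axis) against the log2 difference, miR-125b minus control with IL-7 (horizontal axis, drawn from -1.5 to 1.5), for all 20677 genes in black and for the 226 genes whose probe holds a seed match in blue. The blue line lies to the left of the black one around its middle, with medians of -0.11 and -0.04.

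Stretches of 30 bases around the match are shown for 4 called genes that fell and for the 1 that rose, with the match in capitals. They come from the deposited probe sequences and carry mm9 coordinates of the array design: Ptpn18 chr1:34530591-34530620 on the plus strand, Pipox chr11:77694276-77694305 on the minus strand, Pop5 chr5:115690936-115690965 on the plus strand, Odf2 chr2:29786457-29786486 on the plus strand, and Fam117a chr11:95242702-95242731 on the plus strand.
Ptpn18: gcctgattcaaaataaaagtttCTCAGGGc
Pipox: gactaaatctgCTCAGGGggaatgtaaaac
Pop5: taactgcttagCTCAGGGgtggaataaaca
Odf2: tgcttcctttcCTCAGGGAatgtttggacg
Fam117a: agtggccCTCAGGGccagaacacttgacca
Ptpn18, a tyrosine phosphatase of blood cells, was among the brightest called genes, at 7.14 and 7.01 in the control and 5.96 and 6.02 with miR-125b (difference -1.08 ± 0.08, adjusted p = 0.0179). Its arrays did not overlap between vectors. With 2 arrays a side this held for 50.1% of all genes (20.1% with miR-125b higher, 29.9% with it lower) and for all 534 that were called, so it adds nothing to the call. Pop5, a subunit of RNase P, read 5.30 and 5.09 against 4.37 and 4.57 (-0.73 ± 0.12, adjusted p = 0.047). Pipox, a peroxisomal oxidase, read 3.28 and 3.33 against 2.69 and 2.28 (-0.82 ± 0.14, adjusted p = 0.047). The 8-base match lies in Odf2, a centrosome and cilium protein, with 2.86 and 3.00 against 2.43 and 2.37 (-0.53 ± 0.09, adjusted p = 0.0453). Fam117a went the other way, from -1.75 and -1.64 to 0.73 and -0.15 (1.98 ± 0.33, adjusted p = 0.047), and its miR-125b arrays were further apart than its control arrays. The other called genes with a match, Ccdc82, Sbno2, Zfp944, Esco1 and a pair of transcripts without a gene symbol, differed by -0.83 to -0.44. The mean over all their probes was -0.26 for Ccdc82, -0.32 for Sbno2 and -0.14 for Zfp944.

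Genes reported by others as miR-125b targets were lower more often than genes at large. Of 47 listed targets 44 were tested. With miR-125b 8 of them fell and 1 rose (20.5% called, against 2.58% of all genes). At an unadjusted p under 0.05, 16 were lower and 3 higher, against 11.8% and 8.83% of all genes. Above 0 lay 12 of 44 (27.3%, against 43.3% of all genes). The median of the 44 was -0.19 against -0.04 for all genes. The list was drawn up with earlier results of these data known, and it is no independent evidence of a direction. The probes of only 3 of the 44 (Bap1, Mcl1 and Rps6ka1) hold a seed match, and none of the 8 that fell does, so the search above and this list share hardly any genes.

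**Figure D3:**
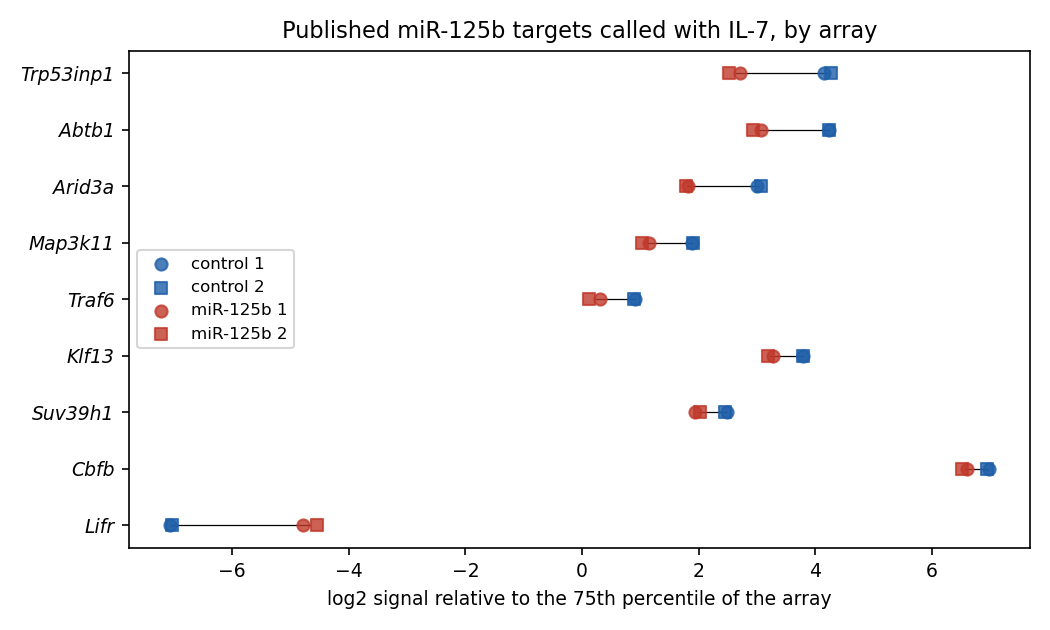
Log2 signal relative to the 75th percentile of the array (horizontal axis) for the 9 listed targets that were called, with blue for control, red for miR-125b, circles for replicate 1 and squares for replicate 2, and a black line between the group means. In each gene that fell both red points lie to the left of both blue points, from Trp53inp1 (-1.60) to Cbfb (-0.40), and Lifr is dim in the control.

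The largest fall among the targets was in Trp53inp1, a p53-induced protein that promotes cell death and autophagy. It read 4.15 and 4.27 on the control arrays and 2.71 and 2.53 with miR-125b (-1.60 ± 0.09, adjusted p = 0.0123), and its other probe gave -1.41. Arid3a (Bright), a transcription factor of B cells, read 2.99 and 3.06 against 1.81 and 1.79 (-1.22 ± 0.07, adjusted p = 0.0123), with -1.38 from its other probe. Abtb1, an ankyrin repeat protein, read 4.22 and 4.23 against 3.07 and 2.92 (-1.23 ± 0.09, adjusted p = 0.0174). These 3 genes had differences many times the gap between replicates. Map3k11 (MLK3), a kinase that activates JNK, read 1.88 and 1.90 against 1.14 and 1.03 (-0.80 ± 0.07, adjusted p = 0.0206). Klf13, a Krüppel-like factor, read 3.79 and 3.79 against 3.27 and 3.18 (-0.56 ± 0.07, adjusted p = 0.0303), and another of its probes gave -0.12. Suv39h1, a histone methyltransferase of heterochromatin, read 2.49 and 2.45 against 1.94 and 2.03 (-0.49 ± 0.07, adjusted p = 0.0397). Cbfb, the partner subunit of the RUNX factors, was the brightest of them, at 6.97 and 6.95 against 6.60 and 6.52 (-0.40 ± 0.07, adjusted p = 0.047).

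Traf6, a ubiquitin ligase downstream of the Toll-like and IL-1 receptors, is less certain. Its chosen probe read 0.92 and 0.89 against 0.30 and 0.11 (-0.69 ± 0.10, adjusted p = 0.0369), but 1 of its 3 probes gave 0.31 and the mean over its probes -0.07. Lifr, a cytokine receptor, was not well above background in the control and reached -4.78 and -4.55 with miR-125b, which makes it at least 1.14-fold higher (adjusted p = 0.0389; measured means -7.05 and -4.67). Here and below, a bound sets the brighter mean against the lowest signal that counts as above background on the arrays of the dimmer group, or the probe's own signal where that is higher. Among targets that did not pass, the pro-apoptotic Bak1 read 4.78 and 4.66 against 4.36 and 4.41 (-0.34 ± 0.08, adjusted p = 0.0971). Mcl1, a survival protein, read 5.43 and 5.41 against 5.09 and 5.06 (-0.34 ± 0.06, adjusted p = 0.0603). Bmf, another death agonist, read 1.50 and 1.90 against 1.39 and 0.93 (-0.54 ± 0.20, adjusted p = 0.206), with replicates 0.4 to 0.5 apart. Hk2, the inducible hexokinase, had the largest positive difference of the measured targets, from -0.52 and -0.94 to 0.16 and 0.69 (1.15 ± 0.24, adjusted p = 0.0742). Trp53 itself read 1.02 and 1.11 against 1.35 and 1.40 (0.31 ± 0.16, adjusted p = 0.322).

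The receptor for IL-7 fell. Il7r, the alpha chain that binds the cytokine, read 5.49 and 5.57 in the control and 4.98 and 4.76 with miR-125b (-0.66 ± 0.09, adjusted p = 0.0363), 1 of 16 genes of the receptor, JAK-STAT5 and feedback list to be called (6.25%, against 2.58% of all genes). In the list of the pre-B cell receptor and its kinases 2 of 20 fell and none rose (2.58% of all genes were called). Zap70, a SYK family kinase, read 5.30 and 5.33 against 4.50 and 4.54 (-0.79 ± 0.10, adjusted p = 0.0303). Lyn, a Src family kinase, read 0.14 and 0.17 against -0.60 and -0.89 (-0.90 ± 0.11, adjusted p = 0.0303). In both kinases the control replicates were within 0.03 of each other, and the miR-125b replicates were further apart. Cd79a, a signalling chain of the receptor, read 6.79 and 6.77 against 6.69 and 6.54 (adjusted p = 0.359). Of 23 tested B-lineage transcription factors 1 was called (4.35%, against 2.58% of all genes). This was Pou2af1 (OCA-B), a coactivator of octamer factors, from 7.88 and 7.88 to 7.52 and 7.49 (-0.37 ± 0.06, adjusted p = 0.0488). Pax5, which maintains B-cell identity, read 0.47 and 0.61 against 0.17 and 0.37 (-0.27 ± 0.10, adjusted p = 0.217).

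No gene of the V(D)J recombination list passed (0 of 13, against 2.58% of all genes). At an unadjusted p under 0.05 there were 8, 3 higher and 5 lower, against 20.6% of all genes. The 2 recombinase genes were the highest of that list by difference. Rag1 read 1.01 and 1.30 in the control and 2.48 and 1.63 with miR-125b (0.90 ± 0.28, adjusted p = 0.152), and Rag2 0.99 and 0.94 against 2.65 and 1.84 (1.28 ± 0.26, adjusted p = 0.0684). Both miR-125b arrays were above both control arrays in each gene, which also held for 20.1% of all genes. The miR-125b replicates themselves were 0.8 to 0.9 apart. Of 27 surface receptors of maturing and homing B cells 1 rose and 2 fell (11.1% called, against 2.58% of all genes). Ly6d, a surface protein of early B-lineage progenitors, read 0.66 and 0.87 against -1.07 and -0.59 (-1.60 ± 0.21, adjusted p = 0.0316). Cr2, the complement receptor CD21 of mature B cells, read -0.21 and -0.04 against 0.68 and 0.62 (0.77 ± 0.12, adjusted p = 0.0399). Flt3, the receptor of lymphoid progenitors, read -3.28 and -3.32 against -4.49 and -4.59 (-1.24 ± 0.08, adjusted p = 0.0123). Its probe is weak, its other probe gave 0.36, the mean over both -0.44, and normexp background correction gave -0.46.

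Called genes of the signalling lists fell in some and rose in others. In the list of the JNK cascade and AP-1, 3 of 27 fell and none rose (11.1% called, against 2.58% of all genes): Map3k11 above, Jun, and Dusp1, a phosphatase of MAP kinases. Jun, the AP-1 subunit phosphorylated by JNK, read 1.25 and 1.23 against 0.57 and 0.61 (-0.65 ± 0.07, adjusted p = 0.0245), and Dusp1 -0.11 and -0.11 against -0.82 and -0.65 (-0.63 ± 0.09, adjusted p = 0.036). In both the replicates of a vector lay closer together than the vectors. In the list of ERK feedback and immediate-early genes 3 of 19 rose and 1 fell (21.1% called, against the same 2.58%). Nr4a1 (Nur77), an orphan nuclear receptor induced by antigen receptor signals, read 0.06 and 0.45 against 2.57 and 2.31 (2.18 ± 0.22, adjusted p = 0.0238). Spry1, a feedback inhibitor of RAS signalling, read 1.93 and 1.89 against 2.54 and 2.83 (0.78 ± 0.12, adjusted p = 0.0397). Etv5, an ETS factor induced by ERK, read 4.25 and 4.32 against 4.95 and 4.89 (0.64 ± 0.09, adjusted p = 0.0352). Klf10 fell, from 1.99 and 1.90 to 1.23 and 1.33 (-0.66 ± 0.09, adjusted p = 0.0335). Dusp6, an ERK phosphatase, read 5.52 and 5.57 against 5.16 and 5.13 (-0.40 ± 0.08, adjusted p = 0.0661) and did not pass. Of 21 NF-kappaB genes 2 were called (9.52%, against 2.58% of all genes). Tnip2, a partner of the inhibitor A20, rose from 0.58 and 0.55 to 1.17 and 1.23 (0.64 ± 0.10, adjusted p = 0.0408) and Traf6 was lower by the probe chosen. Of 27 genes of the PI3K, AKT, mTOR and FOXO list 2 were called (7.41%, against 2.58%). Pik3r2, a regulatory subunit of PI3K, rose from 2.52 and 2.50 to 3.51 and 3.22 (0.85 ± 0.11, adjusted p = 0.0334). Ddit4 (REDD1), an inhibitor of mTORC1, fell from 4.70 and 5.04 to 3.84 and 3.91 (-0.99 ± 0.13, adjusted p = 0.0327).

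Among p53 target genes 3 of 25 fell and none rose (2.58% of all genes were called), with a list median of -0.04, that of all genes. Besides Trp53inp1 these were Btg2, an antiproliferative protein, at 2.90 and 2.97 against 2.12 and 1.84 (-0.96 ± 0.11, adjusted p = 0.0275), and Fas, the death receptor, at -1.14 and -0.86 against -1.83 and -2.25 (-1.04 ± 0.17, adjusted p = 0.047). The BCL2 family had no called member (0 of 15, against 2.58% of all genes). At an unadjusted p under 0.05, 2 were higher and 5 lower, against 8.83% and 11.8% of all genes. The largest difference of the family was in Bid, a death agonist, from 1.84 and 1.50 to 2.16 and 2.66 (0.75 ± 0.20, adjusted p = 0.114). Bcl2l11 (BIM), which brings about the death of B cells without cytokine, read -1.62 and -1.88 against -2.05 and -1.73, with overlapping arrays (adjusted p = 0.723).

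Of 27 G1 cyclins, CDKs, inhibitors and E2F factors 4 fell and none rose (14.8% called, against 2.58% of all genes, and 1.46% of all genes called lower). At an unadjusted p under 0.05, 11 were lower and 0 higher, against 11.8% and 8.83% of all genes. The list median was -0.21. Each gene was also set against its mean over the 4 arrays. The list median was then 0.11 and 0.08 on the control arrays and -0.02 and -0.21 on the miR-125b arrays. For all genes it was 0.03 and 0.00 against -0.03 and 0.00. Replicate 1 of miR-125b thus lay near the value of all genes, and replicate 2 well below it. Ccne1 (cyclin E1), which drives entry into S phase, read 4.78 and 4.65 against 4.03 and 3.98 (-0.71 ± 0.10, adjusted p = 0.0338). E2f2, an activating E2F, was bright on all arrays, at 7.58 and 7.64 against 6.99 and 6.87 (-0.69 ± 0.08, adjusted p = 0.0271). The atypical repressors E2f7 (3.84 and 3.79 against 3.23 and 3.21; -0.60 ± 0.07, adjusted p = 0.0292) and E2f8 (4.91 and 4.90 against 4.45 and 4.34; -0.51 ± 0.07, adjusted p = 0.0369) fell with them. Of 44 mitosis and kinetochore genes only 4 lay above 0 (9.09%, against 43.3% of all genes), with a median of -0.16. Their array medians were 0.08 and 0.07 in the control against -0.05 and -0.12 with miR-125b. At an unadjusted p under 0.05, 15 were lower and 0 higher, against 11.8% and 8.83% of all genes. Of the 44 genes 1 was called (2.27%, against 2.58% of all genes). Spc25, a subunit of the NDC80 complex, fell from 6.89 and 6.90 to 6.50 and 6.42 (-0.43 ± 0.07, adjusted p = 0.0443). The 39 replication genes had a median of -0.04, as all genes did, and 1 called member (2.56%, against 2.58% of all genes). Fen1, the flap endonuclease, fell from 6.57 and 6.45 to 6.02 and 6.03 (-0.49 ± 0.08, adjusted p = 0.0432). Mxd3, a MYC antagonist expressed in S phase, fell from 3.35 and 3.53 to 2.97 and 2.80 (-0.56 ± 0.09, adjusted p = 0.048). In the MYC, MAX and MXD network 1 of 11 was called (9.09%, against 2.58% of all genes).

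Genes of growth were mostly higher, but hardly any passed the test and the shift was mainly between the libraries numbered 2. Of 50 ribosome biogenesis and nucleolus genes 48 lay above 0 (96.0%, against 43.3% of all genes), with a median of 0.36. By limma 0 were called, against 2.58% of all genes. At an unadjusted p under 0.05, 18 were higher and 0 lower, against 8.83% and 11.8% of all genes. The median of the list, each gene set against its mean over the 4 arrays, was -0.04 and -0.30 on the control arrays and 0.01 and 0.31 on the miR-125b arrays. Replicate 1 of each vector thus lay near the middle, and replicates of the same vector lay well apart. Glycolysis and glucose uptake had a similar pattern by array, at 0.01 and -0.23 against -0.01 and 0.26, but its members were more mixed. Of its 22 genes 16 lay above 0 (72.7%, against 43.3% of all genes), with a median of 0.24. None of them was called (0 of 22, against 2.58% of all genes). Here 7 were higher and 3 lower at an unadjusted p under 0.05, against 8.83% and 11.8% of all genes. Polr1b, a subunit of RNA polymerase I, had the largest difference of the first list, from 1.40 and 0.90 to 1.76 and 2.22 (0.84 ± 0.25, adjusted p = 0.144). Myc, which drives both sets of genes, read 3.42 and 2.87 against 3.67 and 4.21 (0.80 ± 0.25, adjusted p = 0.157), so it too was lowest in control replicate 2 and highest in miR-125b replicate 2. Sterol and fatty acid synthesis differed more evenly, with array medians of -0.08 and -0.16 against 0.11 and 0.15. Of its 33 genes 29 lay above 0 (87.9%, against 43.3% of all genes), and the median was 0.24. At an unadjusted p under 0.05, 16 were higher and 0 lower, against 8.83% and 11.8% of all genes. Msmo1, a demethylase of cholesterol synthesis, was the called member (3.03% of the list, against 2.58% of all genes). It rose from 4.92 and 4.90 to 5.66 and 5.56 (0.70 ± 0.08, adjusted p = 0.0271). In polyamine, nucleotide and one-carbon synthesis 1 of 34 was called (2.94%, against 2.58% of all genes). Impdh1, an enzyme of guanine nucleotide synthesis, fell from 4.76 and 4.63 to 4.06 and 4.00 (-0.66 ± 0.09, adjusted p = 0.0345). Of 34 autophagy and lysosome genes 1 was called (2.94%, against 2.58% of all genes). Gaa, the lysosomal alpha-glucosidase, rose from -0.42 and -0.44 to 0.20 and 0.51 (0.78 ± 0.12, adjusted p = 0.0397). Its other probe gave 0.19 and the mean over both 0.49. Of 25 tRNA synthetase and ATF4 stress genes only Ddit4 was called (4.0%, against 2.58% of all genes). None of 38 oxidative phosphorylation genes and none of 20 genes of microRNA processing and silencing passed limma's threshold, against 2.58% of all genes. At an unadjusted p under 0.05 there were 0 and 6 of them, against 20.6% of all genes. Of 26 interferon response genes 1 was called (3.85%, against 2.58% of all genes). Zbp1, a sensor of nucleic acids, fell from -1.43 and -1.53 to -2.96 and -3.52 (-1.75 ± 0.18, adjusted p = 0.0249), with -0.63 from its other probe.

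**Figure D4:**
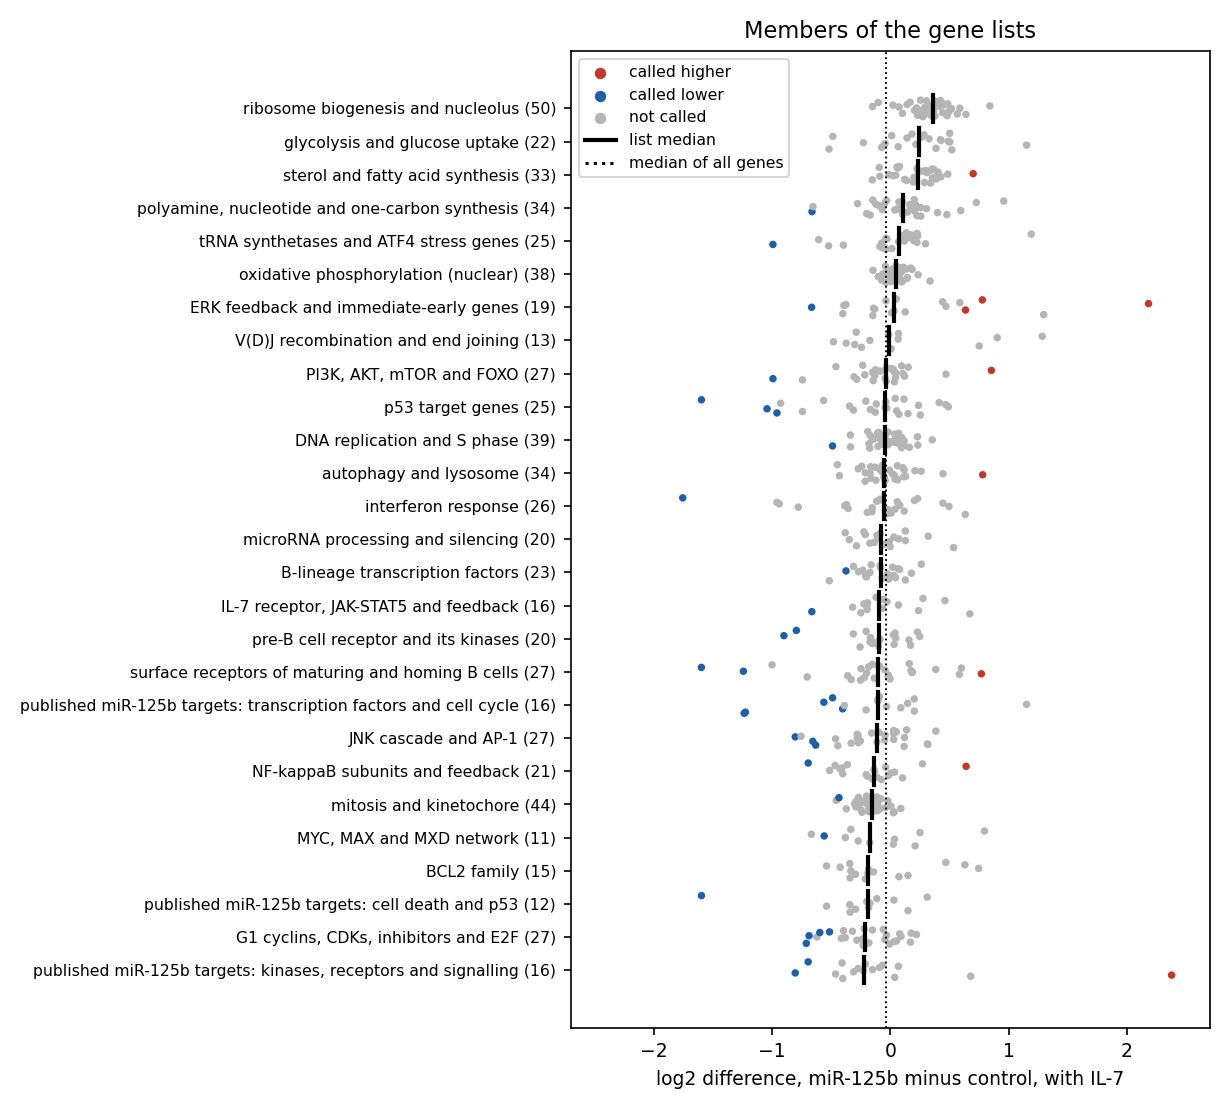
Log2 difference, miR-125b minus control with IL-7 (horizontal axis), of each tested member of the gene lists (vertical axis, number of members in brackets), with called genes in red (higher) or blue (lower), others in grey, list medians as black bars and the median of all genes (-0.04) as a dotted line. Ribosome biogenesis has the highest median (0.36) with no called member, and the called members of the G1 and target lists lie to the left, apart from Lifr, whose point is drawn against a control signal at background and is at least 1.14-fold higher.

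The largest rises among genes with a symbol that were above background on all 4 arrays lay mostly outside these lists. Tgfb3, a secreted TGF-beta ligand, read -3.07 and -1.86 in the control and 2.17 and 1.81 with miR-125b (4.45 ± 0.40, adjusted p = 0.0206). Ift43, a subunit of the cilium's transport complex, read -2.86 and -1.95 against 1.25 and 1.00 (3.53 ± 0.36, adjusted p = 0.0242). Among the genes tested, Ift43 lies next to Tgfb3. The control replicates of both were about 1 apart, far less than the vectors. Tpm2, a tropomyosin of the actin cytoskeleton, read -3.11 and -3.39 against 0.41 and -0.81 (3.05 ± 0.42, adjusted p = 0.0348), and its miR-125b replicates differed by more than 1. Slpi, a secreted inhibitor of neutrophil proteases, read -1.27 and -1.05 against 1.22 and 1.14 (2.34 ± 0.21, adjusted p = 0.0206). Acy3, an aminoacylase, was the brightest of the group, at 2.12 and 1.88 against 3.88 and 3.64 (1.76 ± 0.12, adjusted p = 0.0131). Ahnak, a large scaffold protein, read 0.00 and 0.14 against 1.87 and 1.67 (1.70 ± 0.10, adjusted p = 0.0123). Its 4 probes gave 0.62 to 1.70, and the mean over them was 1.25. Pltp, a phospholipid transfer protein, read -4.11 and -4.51 against -2.12 and -2.25 (2.13 ± 0.15, adjusted p = 0.0131). Rab7b, a GTPase of the endosome, S100a6, a calcium-binding protein, Cmah, an enzyme of sialic acid synthesis, Smim22, Dbndd1 and Lmna (lamin A) rose by 1.65 to 2.06 on the log2 scale. Among the 80 called and named genes lit on all 4 arrays, normexp correction with its offset moved 16 by more than 1.5 times. Of those described so far or in the next paragraph it took Pltp to 0.70, Rab7b to 0.84, S100a6 to 0.81, Dbndd1 to 1.05, Lmna to 0.99, Tpm2 to 1.93, Pik3r3 to -0.69, Plekhh3 to -0.70, Flt3 to -0.46 and Zbp1 to -0.95.

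The largest fall among such genes was in Ell3, an elongation factor of RNA polymerase II expressed in B cells, from 2.38 and 2.47 to 0.21 and 0.12 (-2.26 ± 0.12, adjusted p = 0.0123). Adamtsl2, a secreted matrix protein, read -0.45 and -0.28 against -2.02 and -2.37 (-1.83 ± 0.13, adjusted p = 0.0144). Sertad4 read -0.08 and -0.21 against -1.84 and -2.01 (-1.78 ± 0.11, adjusted p = 0.0123). In these 3 genes the gap between vectors was more than 10 times that within the control. The miR-125b replicates of each lay further apart than its control replicates. Zc3h12d, a member of the regnase family of RNA-degrading proteins, read 0.25 and 0.56 against -0.98 and -1.20 (-1.50 ± 0.13, adjusted p = 0.0206). Pik3r3, a regulatory subunit of PI3K, fell from -2.40 and -2.37 to -3.62 and -3.89 (-1.37 ± 0.11, adjusted p = 0.0179), whereas Pik3r2 rose. Rapgef3 (EPAC1), an exchange factor activated by cAMP, read 0.08 and 0.13 against -1.03 and -1.57 (-1.40 ± 0.18, adjusted p = 0.0311). Slit1, Plekhh3 and Ceacam2 differed by -1.41 to -1.28.

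Of the called genes 27 were above background on miR-125b arrays and on no control array, and 29 the other way round, and for these the size is a lower bound. Given here are those lit on both arrays of their group: the 10 with the largest log2 difference that were higher, Lifr among them, and all 8 with a symbol that were lower. Fndc4, a fibronectin domain protein, was at least 6.58-fold higher with miR-125b (adjusted p = 0.0233), at -2.42 and -1.85 there. Ly86 (MD-1), the partner of the Toll-like receptor homologue RP105 on B cells, was at least 5.75-fold higher (adjusted p = 0.0442), at -1.95 and -2.71. Both were not well above background in the control. Sgsm1 was at least 4.15-fold, Nol4l 3.72-fold, Syngr1 3.33-fold, Tro 2.45-fold, Phactr2 2.39-fold, Lamb1 2.20-fold and Kcnmb1 1.21-fold higher. In the other direction Pdx1, the homeobox factor of the pancreas, was at least 2.95-fold lower (adjusted p = 0.0123), at -3.66 and -3.18 in the control and not well above background with miR-125b. Shank2 was at least 2.67-fold, Fam160a1 2.45-fold, Pde6h 2.31-fold, Ffar2 2.01-fold, Pdia5 1.68-fold, Sohlh1 1.62-fold and Tent5c 1.55-fold lower. Another 7 higher and 24 lower called genes were dim in both groups here, had entered the test through the arrays without IL-7, and are given no fold.

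The same contrast without IL-7 gave a similar set of differences. On those 4 arrays 1330 genes were called (6.43%), 611 higher (2.95%) and 719 lower (3.48%). Of the 534 genes called with IL-7, 507 had the same sign there (94.9%, against 72.7% of all genes). In that direction 376 were also called (70.4%), while 2 were called in the opposite one. Both contrasts come from 1 fit and share 1 standard error for each gene. A gene with a small spread is thus favoured in both tests, and the share called in both is in part built in. No gene passed a limma test of the difference between the contrasts (0 of 20677, 0%, with 1218 at an unadjusted p under 0.05). Trp53inp1 differed by -1.60 with and -1.70 without IL-7, Map3k11 by -0.80 and -0.82, Il7r by -0.66 and -0.58, and Tgfb3 by 4.45 and 4.08. Some called genes had other values in the 2 states, though none passed that test. S100a6 differed by 1.96 with IL-7 and -0.22 without (interaction adjusted p = 0.461), and St3gal6, a sialyltransferase, by 1.40 and 2.76 (0.332). St3gal6, Slc2a6 and Vat1 were singled out after their values were seen. Slc2a6, a glucose transporter family member, differed by 1.09 and -0.51 (0.357), and Vat1 by 0.85 and 2.06 (0.332); with normexp correction Slc2a6 was at 0.28 and Vat1 at 0.47 with IL-7. The arrays with and without IL-7 lay on different slides, each of which held both vectors.

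**Figure D5:**
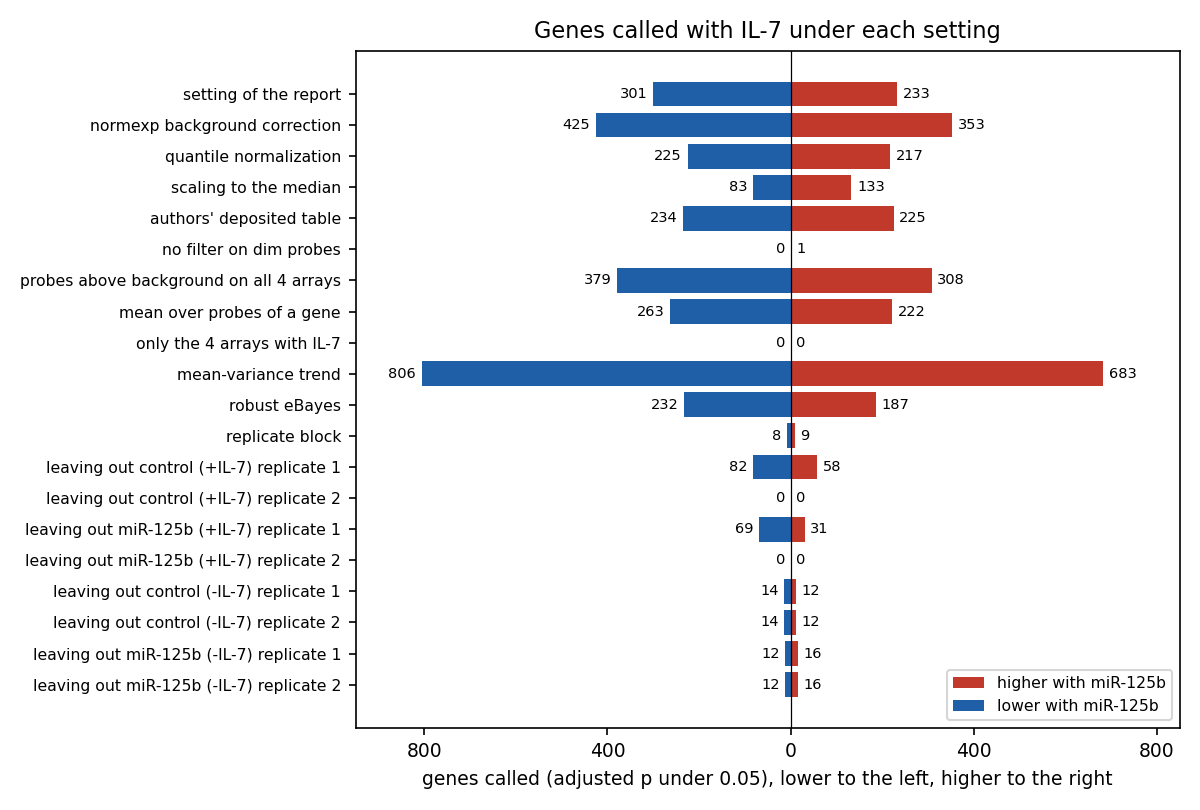
Number of genes called at an adjusted p under 0.05 (horizontal axis, higher with miR-125b to the right in red, lower to the left in blue) in the setting of the report and in 19 others (vertical axis), of which the last 8 leave out 1 array each. The main setting has 233 and 301, and there are no calls with only the 4 arrays in IL-7 or without replicate 2 of either vector.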

How the data were processed

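Cy3-labelled RNA (100 ng of total RNA) was hybridised to 1-colour Agilent arrays. Spots were read with Agilent Feature Extraction, which the submitters' processing notes give as version 10.7.1.1; per the file headers the slide with IL-7 was read with 10.7.3.1. The deposited scanner intensity is the processed signal (background-subtracted, per the file headers). The authors' deposited value table, an alternative, holds linear intensity with nearly the same quantiles in every column (medians 21.79 to 21.84); its log2 values correlated with those of the scanner at 0.999 or above, and how it was made is not given in the sources used here. Control spots were left out, signals divided by the 75th percentile of each array, log2 taken and spots of a probe averaged. Probes were kept where both arrays of any of the 4 groups were above background (29811), the brightest probe standing for a gene (20677). Signal over background, with 49.5 to 50% of 55681 probes lit and 0 saturated spots on the 4 arrays, and the number of arrays limit the precision. A linear model over all 8 arrays with 4 group means (limma 3.58.1 in R 4.3.3; 4 residual and 1.82 prior degrees of freedom) tested each gene, with Benjamini-Hochberg adjustment at 0.05. On simulated data for this comparison (20677 genes) 57% of 2-fold and 87% of 4-fold changes were found, and 5 unchanged genes were called. The simulated noise was normal and independent between arrays, with spreads drawn from limma's own fitted prior. It held no extra noise for dim probes and no shift shared by the genes of an array. The shares found are therefore not the power on these arrays. Genes were named through RefSeq accessions, symbols or synonyms where these matched (27235, 3581 and 565 probes; the file's own name for 24300). Named genes are the 15 highest and 15 lowest called and measured symbols, the 10 highest and the 8 lowest log2 differences of genes lit in 1 group only (given as bounds), called list members, published targets and some B-lineage genes. Members and lists were chosen with earlier results of these data known. The search of probe sequences for seed matches replaced a planned search of transcripts after the probe sequences had been seen. Whether replicate numbers mark the 2 experiments is not stated; deviations of libraries with the same number correlated at -0.0979 to 0.113 between groups (0.0859 for the groups compared), so the numbers were not used as a block in the main fit. The p-values measure the spread between the 2 arrays of a group, pooled over the 4 groups with and without IL-7. All arrays come from 1 line, and whether the 2 arrays of a group are independently made clones is not stated.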

Additional observations from a re-analysis of the deposited data

How the results depend on the processing

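The count of genes called with IL-7 (534) was within 1.5 times of itself under normexp correction (778), quantile normalization (442), the authors' deposited table (459), probes lit on all 4 arrays (687), the mean over probes (485) and robust eBayes (419). It was 1489 with a mean-variance trend, 216 with scaling to the median, 17 with the replicate number as a block, 1 (a higher one, 3812 unadjusted) without a filter on dim probes, and 0 (3062 unadjusted) with only the 4 arrays. Leaving out 1 array gave 0 to 140. The cause was not tested; a fit with fewer arrays or a block has fewer residual degrees of freedom. With the replicate number as a block 85 of the 98 named calls were lost. The test of a difference between the contrasts with and without IL-7 called 1 gene under quantile normalization, scaling to the median, the deposited table or the trend, 5 under normexp and 0 to 3 without 1 array, against 0 in the main setting. For the seed match classes, the median of genes with a match minus that of all genes was -0.0730, and -0.0477 with normexp, -0.0461 with the mean over probes, -0.0140 without a filter and -0.0882 to -0.0606 without 1 array. Of the uncalled genes given with a difference 3 changed sign: Ebf1 (0.0299 under normexp, 0.0828 under scaling to the median), Vpreb1 (-0.0374 to 0.1207 without 1 array) and Bcl2l11 (-0.2997 to 0.0176 without 1 array). The medians of ribosome biogenesis, sterol synthesis, G1 and mitosis genes, relative to all genes, kept their sign in all 19 other settings, at 0.2437 to 0.5083, 0.2107 to 0.3372, -0.2728 to -0.0786 and -0.1766 to -0.0574. Differences of weak probes shrink under normexp, whose offset of 50 is added to the signal.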

Other observations

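Some of the called genes were neighbours on a chromosome among the genes tested. Untested genes were skipped and can lie between the 2 genes of a pair. In the RefSeq order of GRCm38.p6 there were 22 pairs of adjacent tested genes that were both called. Of these 16 went in the same direction and 6 in opposite directions, and no test of this number was made. Tgfb3 and Ift43 rose together on chromosome 12 (4.45 and 3.53), and Tro and Maged2, members of the MAGE family, on the X chromosome (Tro at least 2.45-fold higher, being dim in the control, and Maged2 by 0.61). Smim22 and Rogdi rose on chromosome 16 (1.81 and 1.28), and Lmna and Mex3a on chromosome 3 (1.65 and 0.92). Dll4, a Notch ligand, and the noncoding Gm14207 beside it rose on chromosome 2 (1.44 and 2.48). Pdx1 and Flt3 fell together on chromosome 5 (Pdx1 at least 2.95-fold lower, being dim with miR-125b, and Flt3 by -1.24 from a weak probe), and Lynx1 and Ly6d, of the Ly6 superfamily, on chromosome 15 (-1.11 and -1.60). Mgll, which breaks down monoglycerides, rose by 1.49 on the log2 scale beside the target Abtb1, which fell by 1.23 on the log2 scale. Tubb2a and Tubb2b on chromosome 13 (0.67 and 1.12) are near-identical tubulin genes whose probes could detect both transcripts. Maged2, Rogdi, Mex3a, Dll4, Gm14207, Lynx1, Mgll, Tubb2a and Tubb2b were named after their values were seen. With normexp correction Dll4 was at 0.40, Gm14207 at 0.97, Lynx1 at -0.56 and Mgll at 0.90.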
